A study of Mus musculus with 6 samples.

Results

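The genes described here are 39 hepatic enzymes that break down amino acids, taken as the rows of the deposited table whose names equal a list of 39 symbols. All 39 were found among the 24318 rows, and all had a value above 0 in every library. Whole liver RNA was sequenced from C57BL/6 mice of the genotype VEcadCreERT2/TAK1flox/flox, with 3 libraries from mice given no treatment (control) and 3 from mice given tamoxifen (knockout). The flox alleles of the kinase TAK1 (gene Map3k7) can be removed by a Cre recombinase that tamoxifen activates and that the promoter of VE-cadherin restricts to endothelial cells, so the hepatocytes that make most of these enzymes are not the cells targeted. Controls carried the same alleles but received no tamoxifen, so the deletion and the drug cannot be told apart. The sources used here give neither the age of the mice, nor the time after tamoxifen, nor whether each library is a separate animal, and the p-values measure the spread between these libraries.

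The liver takes up amino acids from portal blood and removes those in excess of need. Each amino acid has its own route: nitrogen is taken off by aminotransferases and dehydratases, rings are opened by dioxygenases, and the carbon skeletons feed the citric acid cycle, glucose synthesis or ketone bodies. Methionine is handled by a cycle that makes S-adenosylmethionine, the methyl donor of the cell, and passes its sulfur to cysteine and taurine.

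Expression of most of these enzymes was lower in knockout livers. Of the 39 enzymes, 27 fell and 0 rose at a Benjamini-Hochberg adjusted p under 0.05 (limma on log2(FPKM + 0.5), with all 11842 genes whose mean reached 0.5 FPKM tested together), where FPKM is the fragments of a gene corrected for transcript length and sequencing depth. Of the 27, 13 fell by at least 1 log2 unit, as did 5.08% of genes tested. At an unadjusted p under 0.05, 30 of the 39 were lower and 1 was higher. The share of all genes at that looser threshold is not given here, and the shares that follow are for the adjusted p. Among all genes tested 13% were called lower and 14.1% higher, and among the 6443 genes whose mean reached 5 FPKM, which include all 39, 21.6% were called lower. The median log2 fold change of the 39 was -0.89, against -0.0007 over all genes tested. Knockout means of the 27 stood at 21.9% to 71.3% of the control means, and for all 27 every knockout library lay below every control library, a pattern seen in 21.1% of genes tested. The remaining 12 ranged from 59.4% to 153% of control. The falls were spread over histidine, serine, tryptophan, tyrosine, transsulfuration, taurine, branched chain, lysine, proline and aminotransferase genes, while neither glycine cleavage gene passed the test and only 2 of 6 genes of the methionine cycle and transsulfuration did.

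**Figure D1:**
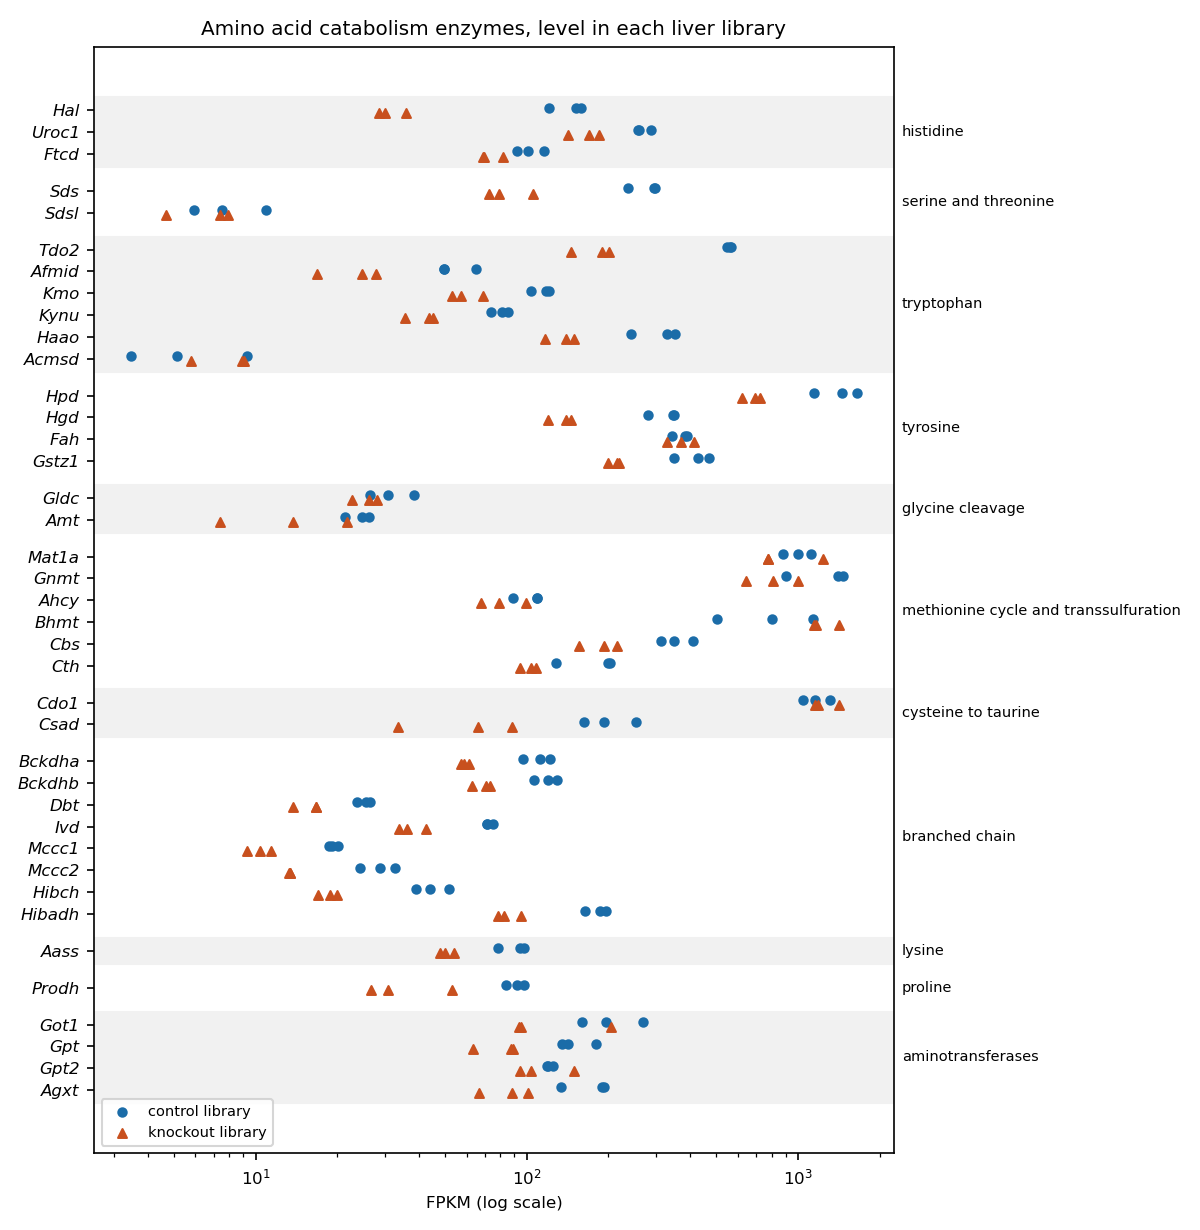
FPKM (log axis) of the 39 enzymes in each of the 6 liver libraries, grouped by pathway, with circles for control and triangles for knockout libraries. The groups are separate for Hal, Sds and Tdo2, with Hal at 28.5 to 35.8 in knockout and 121 to 159 in control libraries, and they overlap for Fah, Cdo1 and Gpt2.

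In bulk tissue, fewer cells of a type and less RNA per cell cannot be told apart. Hepatocyte markers were abundant in every library; of 11, 3 fell (Apoa2, Ttr and Serpinc1), 2 rose (Fgb and the acute phase protein Hpx) and 7 had a negative log2 fold change, with a median of -0.14. Their summed level was 51123 to 60249 FPKM in the controls, against 56923 to 63588 FPKM in the knockouts. Without Hpx, left out after its values were seen, the sums were 52752, 50515 and 39332 FPKM, against 34230, 38704 and 36680 FPKM. Every knockout sum then lay below every control sum. Apoa2, which fell, was the most abundant marker in every control. It measured 18242, 17828 and 12926 FPKM, against 7080, 7368 and 8691 FPKM. The separation may rest on Apoa2 alone, and 6 of the 11 markers were not called, so no conclusion is drawn from these sums. Neutrophil and monocyte markers rose (10 of 10), from a sum of 35.3 to 75.7 FPKM in control to 1741 to 1840.1 FPKM in the knockouts, with Camp, Ngp, Ly6c2 and Chil3 listed at 0 in some controls. Macrophage markers rose in 5 of 9 and summed to 465 to 978 against 1040.1 to 1228 FPKM. Stellate cell markers rose in 6 of 8 and lymphocyte markers in 4 of 7, endothelial markers fell in 5 of 8, and of 5 cholangiocyte markers 1 fell and 1 rose. All libraries were also rescaled to the same mean log2 level of the 11 hepatocyte markers. Unlike the sum, that level was lower on average in the knockouts, with overlapping groups (11.51 to 11.61, against 11.58 to 11.77 in the controls). After this rescaling 26 of the 39 enzymes were called lower, as were 9.81% of all genes tested. The median log2 fold change of the 39 was -0.76 and that of all genes was 0.11. The 11 markers include Fgb and Hpx, which rose and so make the correction smaller. Rescaling without them was not tested. Control library 3 had the highest sum among controls for every list of other cell types, such as macrophages (978 FPKM), endothelium (180 FPKM) and stellate cells (220 FPKM). Its hepatocyte marker sum was the lowest of the controls, 51123 FPKM. It also held the lowest value of the 3 controls for 33 of the 39 enzymes (84.6%, against 36.4% of all genes tested). The part of the other cell types in the enzyme results was not tested. Knockout library 2 held the highest knockout value for 21 of the 39 (53.8%, against 33.4% of all genes tested). Without control library 3 and knockout library 2, 30 enzymes were lower and 0 higher, beside 11.8% of genes tested called lower. These libraries were chosen after their values were seen. Removing them tends to widen the gap between the groups, so no conclusion is drawn from this count. The targeted gene Map3k7 measured 8.498, 9.02 and 9.14 FPKM in the controls, against 9.28, 9.31 and 7.35 FPKM in the knockouts, which in whole liver does not check the deletion in endothelium.

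Promoter sequences are shown for the member that fell most in each of 3 pathways of ring-bearing amino acids (Hal for histidine, Tdo2 for tryptophan, Hgd for tyrosine) and for Bhmt, the only enzyme whose knockout libraries all lay above the controls. Each is the 250 bases before the start annotated by RefSeq on GRCm38.p6, which is not the authors' build mm9. For Tdo2 and Bhmt that start lies inside the GENCODE M21 gene span given below, which ends at 81976202 and 93637961. The Tdo2 window thus lies wholly, and the Bhmt window partly, within that span. Entries matched 31 of the 39 genes, and Sds, Sdsl, Cth, Gpt, Dbt, Cdo1, Kynu and Mat1a had none. Capitals mark matches, on either strand, to the C/EBP motif TTGCNNAA, the HNF1 half-site GTTAAT, the HNF4 motif CAAAGTCCA and the glucocorticoid receptor motif, which is AGAACA and TGTTCT with 3 bases between them, all of factors known to act in hepatocytes.
Hal, chr10:93488518-93488767, plus strand: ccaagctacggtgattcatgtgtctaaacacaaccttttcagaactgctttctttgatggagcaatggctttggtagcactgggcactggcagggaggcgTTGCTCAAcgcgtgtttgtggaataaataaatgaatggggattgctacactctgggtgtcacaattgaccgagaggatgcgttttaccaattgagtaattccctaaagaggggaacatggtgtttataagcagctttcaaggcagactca
Tdo2, chr3:81975729-81975978, minus strand: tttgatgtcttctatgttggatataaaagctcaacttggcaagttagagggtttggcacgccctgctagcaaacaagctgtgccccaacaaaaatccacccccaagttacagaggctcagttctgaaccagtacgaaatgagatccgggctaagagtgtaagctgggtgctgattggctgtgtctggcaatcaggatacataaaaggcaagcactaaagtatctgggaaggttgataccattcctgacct
Hgd, chr16:37579903-37580152, plus strand: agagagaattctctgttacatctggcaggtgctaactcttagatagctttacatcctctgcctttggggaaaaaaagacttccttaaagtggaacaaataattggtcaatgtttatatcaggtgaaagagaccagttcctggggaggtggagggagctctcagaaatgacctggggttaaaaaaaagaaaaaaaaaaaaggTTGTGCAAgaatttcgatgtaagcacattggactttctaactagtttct
Bhmt, chr13:93637759-93638008, minus strand: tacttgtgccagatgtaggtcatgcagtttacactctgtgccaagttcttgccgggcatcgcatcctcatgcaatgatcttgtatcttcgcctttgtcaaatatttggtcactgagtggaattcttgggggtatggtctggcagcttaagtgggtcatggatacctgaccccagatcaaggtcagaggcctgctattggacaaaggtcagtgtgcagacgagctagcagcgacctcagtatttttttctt
The C/EBP motif began 150 bases before the start of Hal and 49 bases before that of Hgd, and the letters of the 4 motifs were not in the windows of Tdo2 and Bhmt. Over the genes with an entry, the C/EBP motif was in 3 of 22 enzymes called lower (Aass, Hal and Hgd) and 0 of 9 not called, against 9.56% of all 32851 promoter windows of that length. The HNF1 half-site was in 3 of 22 (Bckdhb, Ftcd and Haao) and 0 of 9, against 6.43% of windows. The HNF4 and glucocorticoid receptor motifs were in no enzyme window, and in 0.384% and 0.00913% of all windows. A match here describes letters and not binding.

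Histidine breakdown is represented by 3 enzymes, and all of them fell. Hal, histidine ammonia-lyase, which removes the amino group and commits histidine to breakdown (ENSMUSG00000020017, chromosome 10, 93488768 to 93519304 in the GRCm38 annotation), stood at 151, 159 and 121 FPKM in the controls, against 28.5, 35.8 and 30.0 FPKM in the knockouts. The groups were far apart, and Hal had the largest fall of the 39, with a log2 fold change of -2.17 ± 0.16 (SE, limma adjusted p = 4.86e-05). Uroc1, urocanase, the next step, measured 286, 258 and 259.9 FPKM in the controls, against 184, 169.9 and 141 FPKM in the knockouts. Its fall was smaller, by 0.70 ± 0.14 on the log2 scale (adjusted p = 0.00634). Ftcd, which passes the formimino group to folate at the end of the route, stood at 71.3% of control (log2 fold change -0.48 ± 0.14, adjusted p = 0.0323). That call did not hold when control library 1 or 2 or knockout library 1 or 3 was left out, at log2 fold changes of -0.40 to -0.49.

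Serine and threonine dehydratase activity comes from the paralogs Sds and Sdsl, which lie next to each other on chromosome 5 (Sdsl at 120458186 to 120472810 and Sds at 120476526 to 120483932 in GRCm38). Sds, which turns serine into pyruvate and is known as a glucagon- and glucocorticoid-induced periportal gene, measured 295, 297 and 236 FPKM in the controls, against 79.3, 105 and 72.4 FPKM in the knockouts. It fell to 31.0% of control (log2 fold change -1.69 ± 0.17, adjusted p = 2.59e-04). The much scarcer Sdsl measured 11.0, 5.91 and 7.52 FPKM in the controls, against 4.69, 7.38 and 7.94 FPKM in the knockouts, with overlapping groups and a log2 fold change of -0.26 ± 0.26 (adjusted p = 0.512). Paralogs can share reads, and the sources used here do not say how such reads were split.

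Of the 6 tryptophan enzymes 5 fell, the exception being the scarcest. Tdo2, the dioxygenase that opens the indole ring and sets the rate of tryptophan breakdown (ENSMUSG00000028011, chromosome 3, 81957090 to 81976202), measured 568, 548 and 560.1 FPKM in the controls, against 189, 200.4 and 146 FPKM in the knockouts. The controls lay within a narrow band and the knockouts at 31.9% of it (log2 fold change -1.66 ± 0.15, adjusted p = 1.75e-04). Afmid, the formamidase that releases kynurenine, measured 65.0, 49.7 and 49.6 FPKM in the controls, against 24.6, 27.9 and 16.9 FPKM in the knockouts. No knockout value reached the controls (log2 fold change -1.24 ± 0.20, adjusted p = 0.00232). Haao, the dioxygenase that opens the ring of 3-hydroxyanthranilate on the way to NAD, measured 330.2, 353 and 242 FPKM in the controls, against 139, 117 and 149.9 FPKM in the knockouts. It fell by 1.17 ± 0.18 on the log2 scale (adjusted p = 0.00157).

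Between those steps, the hydroxylase Kmo and the hydrolase Kynu fell to 52.6% and 51.7% of control (log2 fold changes -0.93 and -0.95, adjusted p = 0.00186 and 0.00157). Macrophages are also known to express both, 5 of 9 macrophage markers rose, and their part in these values was not tested. Acmsd, the decarboxylase that diverts the pathway from NAD to full oxidation, measured 9.28, 5.12 and 3.46 FPKM in the controls, against 8.89, 9.07 and 5.78 FPKM in the knockouts. Its groups overlapped, and the log2 fold change of 0.46 ± 0.32 did not pass the test (adjusted p = 0.331).

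Tyrosine is degraded by Hpd, Hgd, Gstz1 and Fah in that order, and the first 3 fell while Fah did not pass the test. Hpd, 4-hydroxyphenylpyruvate dioxygenase and the most abundant enzyme of the set in controls, measured 1656, 1450.2 and 1141 FPKM in the controls, against 695, 723 and 622 FPKM in the knockouts. The knockout level was 48.0% of control (log2 fold change -1.04 ± 0.17, adjusted p = 0.00258). Hgd, the dioxygenase that opens the homogentisate ring (ENSMUSG00000022821, chromosome 16, 37580153 to 37632020), measured 345, 350.0 and 281 FPKM in the controls, against 145, 139.9 and 120.0 FPKM in the knockouts. It had the largest fall of the route (log2 fold change -1.26 ± 0.15, adjusted p = 4.59e-04). The isomerase Gstz1 stood at 50.8% of control (log2 fold change -0.96 ± 0.15, adjusted p = 0.00181). Fah, the hydrolase that yields fumarate and acetoacetate at the last step, measured 383, 389 and 344 FPKM in the controls, against 329.9, 415 and 369 FPKM in the knockouts. These values interleave, with means of 372 ± 24.8 and 371 ± 42.4 FPKM (SD, n = 3 each) and a log2 fold change of -0.01 ± 0.14 (limma adjusted p = 0.981), whose sign flips when libraries are rescaled to the same median (0.0020) or hepatocyte level (0.12).

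**Figure D2:**
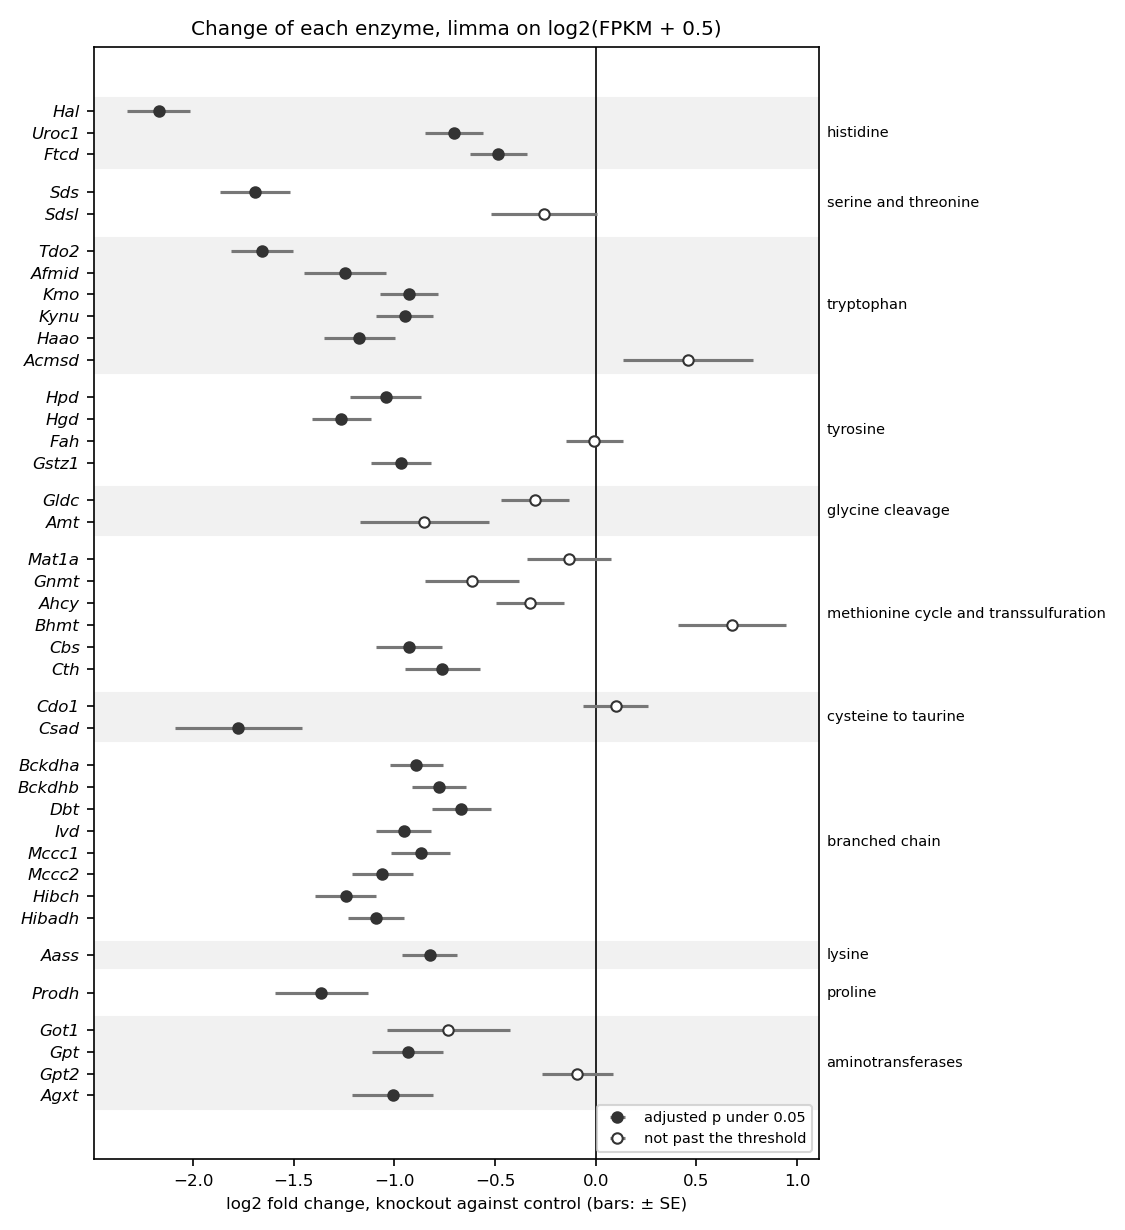
Log2 fold change of knockout against control (horizontal axis, bars ± SE from limma) for the 39 enzymes by pathway, filled where the adjusted p is under 0.05. All 8 branched chain enzymes lie between -0.67 and -1.24, while Fah, Mat1a, Cdo1 and Gpt2 lie near 0 and Bhmt is at 0.68.

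Branched chain amino acid enzymes fell together and by similar amounts: all 8 passed the test, with log2 fold changes of -0.67 to -1.24 and knockout means at 41.5% to 62.4% of control. The dehydrogenase complex that commits leucine, isoleucine and valine to oxidation is represented by its E1 subunits Bckdha and Bckdhb and its E2 core Dbt. Their log2 fold changes were -0.89 ± 0.13, -0.78 ± 0.13 and -0.67 ± 0.15 (adjusted p = 0.00157, 0.00295 and 0.00906). On the leucine branch, Ivd, isovaleryl-CoA dehydrogenase, fell to 51.5% of control and Mccc1, the biotin-bearing subunit of methylcrotonyl-CoA carboxylase, to 53.7%. The other subunit, Mccc2, measured 32.8, 28.9 and 24.3 FPKM in the controls, against 13.4, 13.4 and 13.3 FPKM in the knockouts. The knockout libraries were nearly equal and all below the controls (log2 fold change -1.06 ± 0.15, adjusted p = 0.00128).

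Valine's own steps are represented by Hibch and Hibadh, and Hibch had the largest fall of the branched chain group. Hibch, the hydrolase of 3-hydroxyisobutyryl-CoA, measured 43.9, 51.6 and 39.1 FPKM in the controls, against 20.0, 17.0 and 18.8 FPKM in the knockouts. Its log2 fold change was -1.24 ± 0.15 (adjusted p = 5.77e-04). Hibadh, the dehydrogenase that follows it, measured 187, 197 and 164 FPKM in the controls, against 82.7, 78.6 and 95.0 FPKM in the knockouts. It fell by 1.09 ± 0.14 on the log2 scale (adjusted p = 6.87e-04), also with no overlap.

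None of the 4 methionine cycle genes Mat1a, Gnmt, Ahcy and Bhmt passed the test. Mat1a, the liver enzyme that makes S-adenosylmethionine, measured 999, 1115 and 880.0 FPKM in the controls, against 774, 1233 and 776 FPKM in the knockouts. Knockout library 2 lay above all controls and the other 2 below them (log2 fold change -0.13 ± 0.21, adjusted p = 0.675). Gnmt, which uses up surplus S-adenosylmethionine by methylating glycine, measured 1407, 1463 and 901 FPKM in the controls, against 807, 1000.3 and 643 FPKM in the knockouts. Control library 3 fell among the knockout values, the log2 fold change of -0.61 ± 0.23 did not pass the test (adjusted p = 0.0809), and without that control it was -0.84 with adjusted p = 0.0201. The hydrolase Ahcy, which splits the S-adenosylhomocysteine left over, stood at 80.3% of control (log2 fold change -0.33 ± 0.17, adjusted p = 0.185).

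Bhmt, which remakes methionine from homocysteine with a methyl group of betaine (ENSMUSG00000074768, chromosome 13, 93616675 to 93637961), measured 1136, 804 and 505 FPKM in the controls, against 1149, 1420.3 and 1161 FPKM in the knockouts. All knockout values lay above the controls, a pattern seen in 22.4% of genes tested, but control library 1 came close to them and the log2 fold change of 0.68 ± 0.27 did not pass the test (adjusted p = 0.0902). Without control library 1 it was 0.96 with adjusted p = 0.0247, and with libraries rescaled to the same hepatocyte marker level 0.81 with adjusted p = 0.0237.

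Transsulfuration, which moves homocysteine sulfur to cysteine, fell at both of its steps. Cbs, cystathionine beta-synthase, measured 409.8, 350.3 and 312 FPKM in the controls, against 193, 156 and 215 FPKM in the knockouts. The groups did not overlap (log2 fold change -0.93 ± 0.17, adjusted p = 0.00353). Cth, the lyase that releases cysteine, stood at 57.7% of control (log2 fold change -0.76 ± 0.19, adjusted p = 0.015). That call did not hold when control library 1, control library 2 or knockout library 1 was left out, at -0.65, -0.66 and -0.71.

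The 2 enzymes from cysteine to taurine went apart. Cdo1, the dioxygenase that oxidizes cysteine, measured 1308, 1153 and 1047 FPKM in the controls, against 1153, 1415 and 1189 FPKM in the knockouts, overlapping groups with a log2 fold change of 0.10 ± 0.16 (adjusted p = 0.693) that turns to -0.022 when libraries are rescaled to the same total. Csad, the decarboxylase of its product that makes hypotaurine, measured 193, 163 and 252 FPKM in the controls, against 65.9, 33.5 and 88.1 FPKM in the knockouts. It fell to 30.8% of control (log2 fold change -1.77 ± 0.32, adjusted p = 0.00347). Knockout library 2 was the lowest, and without it the log2 fold change was -1.38.

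Glycine cleavage genes did not pass the test. Gldc, the decarboxylase of the cleavage system, measured 38.3, 30.9 and 26.5 FPKM in the controls, against 28.0, 22.6 and 26.3 FPKM in the knockouts, with overlap and a log2 fold change of -0.30 ± 0.17 (adjusted p = 0.224). Amt, its aminomethyltransferase, measured 26.3, 24.7 and 21.3 FPKM in the controls, against 13.7, 7.42 and 21.8 FPKM in the knockouts. Only knockout library 3 reached the controls, and the log2 fold change was -0.85 ± 0.32 (adjusted p = 0.0768), or -1.21 with adjusted p = 0.0119 without that library.

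Lysine and proline each had 1 enzyme in the set, and both fell. Aass, which carries out the first 2 steps of lysine breakdown, measured 98.1, 94.5 and 78.4 FPKM in the controls, against 50.1, 53.7 and 48.0 FPKM in the knockouts (log2 fold change -0.83 ± 0.14, adjusted p = 0.00255). Prodh, proline dehydrogenase of the mitochondrial membrane, measured 97.8, 84.2 and 92.3 FPKM in the controls, against 26.7, 53.0 and 30.7 FPKM in the knockouts. Knockout library 2 was the highest of its group yet below every control (log2 fold change -1.36 ± 0.23, adjusted p = 0.00279).

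Of the aminotransferases, Gpt and Agxt fell while Got1 and Gpt2 did not pass the test. Agxt, the liver's alanine-glyoxylate aminotransferase, measured 189, 193 and 133 FPKM in the controls, against 101, 66.4 and 88.3 FPKM in the knockouts, with no overlap (log2 fold change -1.01 ± 0.20, adjusted p = 0.00577). The cytosolic alanine aminotransferase Gpt measured 181, 142 and 135 FPKM in the controls, against 63.5, 88.6 and 87.4 FPKM in the knockouts (log2 fold change -0.93 ± 0.18, adjusted p = 0.00456). Its mitochondrial paralog Gpt2 measured 119, 125 and 118 FPKM in the controls, against 104, 149 and 94.4 FPKM in the knockouts, with values on both sides of the controls (log2 fold change -0.09 ± 0.18, adjusted p = 0.742). The cytosolic aspartate aminotransferase Got1 measured 196, 269 and 159.9 FPKM in the controls, against 93.7, 205 and 95.4 FPKM in the knockouts. Knockout library 2 stood apart from the other 2, within the control range, and the log2 fold change was -0.73 ± 0.30 (adjusted p = 0.106), or -1.10 with adjusted p = 0.00731 without that library.

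Ratios within a library were compared for 9 pairs of enzymes that share a pathway, a complex or an origin. Hpd and Fah are the first and last tyrosine enzymes of the set and not successive steps. To each level 0.5 FPKM was added, which lowers a ratio over a scarce enzyme such as Sdsl. In 4 pairs the control and knockout ratios did not overlap. Each of these 4 sets an enzyme called lower against an enzyme not called. The ratio of Sds to Sdsl went from 25.7, 46.5 and 29.5 to 15.4, 13.4 and 8.64, a difference of -1.44 in log2 ratio. The ratio of Gpt to Gpt2 went from 1.51, 1.13 and 1.14 to 0.613, 0.595 and 0.927, so the cytosolic form was the more abundant in every control and the mitochondrial form in every knockout library. Hpd to Fah went from 4.32, 3.72 and 3.32 to 2.10, 1.74 and 1.68, and Cdo1 to Csad from 6.75, 7.06 and 4.14 to 17.4, 41.7 and 13.4. Each of these 4 had an exact two-sided permutation p of 0.1, the smallest that 3 against 3 libraries can give, and 0.225 adjusted over the 9 pairs, so none can pass a threshold of 0.05.

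In the other 5 pairs the groups overlapped. The differences in log2 ratio were -0.11 for Bckdha to Bckdhb, 0.19 for Mccc1 to Mccc2, -0.17 for Cbs to Cth and 0.023 for Kmo to Kynu, with exact permutation p of 0.2 to 0.9. Gldc to Amt differed by 0.55 (exact permutation p = 0.4). These p-values do not show the ratios to be equal.

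**Figure D3:**
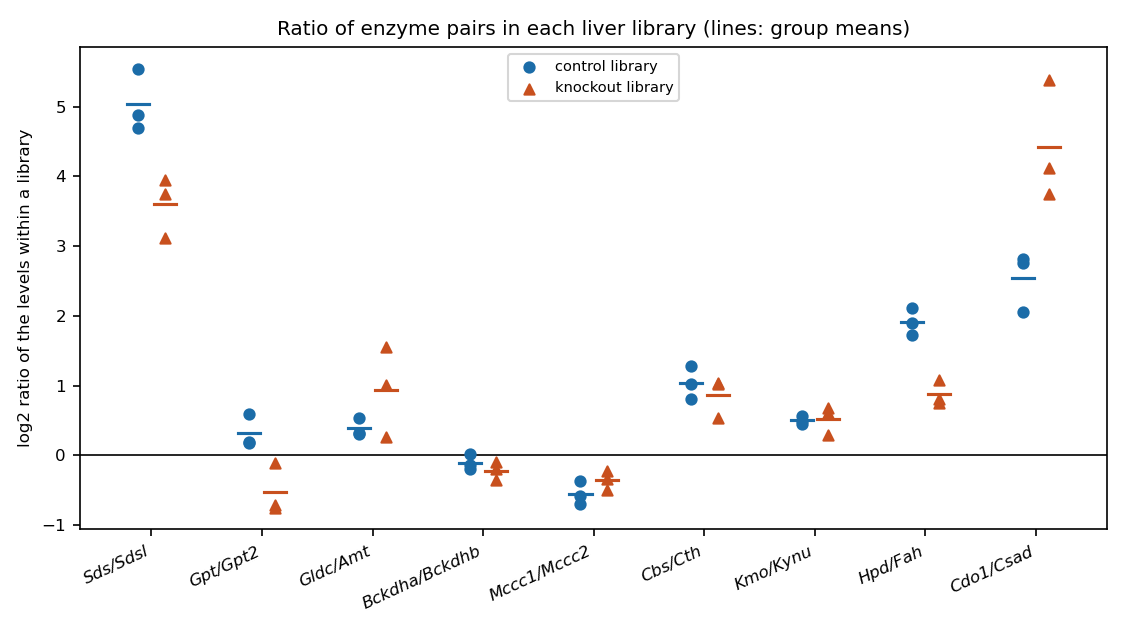
Log2 ratio of the levels of 9 enzyme pairs within each library (vertical axis), with circles for control, triangles for knockout and lines for group means. Control and knockout libraries separate for Sds/Sdsl, Gpt/Gpt2, Hpd/Fah and Cdo1/Csad, and overlap for the other 5 pairs.

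The further genes of the same pathways moved in the same direction for the most part. Of 72 found, 66 were abundant enough to test, of which 44 fell and 2 rose; the median log2 fold change was -0.78. Amdhd1, the histidine enzyme between Uroc1 and Ftcd, measured 98.0, 99.8 and 75.8 FPKM in the controls, against 22.0, 26.0 and 25.4 FPKM in the knockouts (log2 fold change -1.87 ± 0.15, adjusted p = 9.65e-05), a fall near that of Hal. Pcbd1 and Qdpr, which recycle the cofactor tetrahydrobiopterin, fell with log2 fold changes of -1.16 and -1.29. Tat, which starts tyrosine breakdown just before Hpd and was chosen after its values were seen, stayed abundant at 1252, 1064 and 1134 FPKM in the controls, against 1000.2, 859 and 849.5 FPKM in the knockouts (log2 fold change -0.35 ± 0.15, adjusted p = 0.116, and -0.47 with adjusted p = 0.0437 when libraries are rescaled to the same total).

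Among genes of lysine, proline and tryptophan breakdown, the glutaryl-CoA dehydrogenase Gcdh (-1.25), the hydroxylysine kinase Hykk (-1.78), the hydroxyproline dehydrogenase Prodh2 (-1.33), the next proline enzyme Aldh4a1 (-1.08) and the indole dioxygenase Ido2 (-1.31) fell, given as log2 fold changes. So did the asparaginase Aspg (-1.87), the GABA transaminase Abat (-1.03) and the rhodanese Tst (-1.01). Of the branched chain genes 13 of 15 fell, led by the phosphatase Ppm1k, which activates the dehydrogenase complex (-1.09, adjusted p = 0.0235, and 0.0508 to 0.0771 without any 1 control library), and the epimerase Mcee (-1.01, adjusted p = 0.012, and 0.0532 without control library 2).

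Serine, threonine and glycine genes held both falls and rises. Of 12 genes 8 fell, among them serine racemase Srr (log2 fold change -1.32), the cytosolic serine hydroxymethyltransferase Shmt1 (-1.19), the sarcosine oxidase Pipox (-1.16) and the glycine cleavage carrier Gcsh (-1.15). Shmt1 measured 96.2, 97.4 and 97.7 FPKM in the controls, against 42.4, 43.0 and 41.5 FPKM in the knockouts. The 2 that rose were Shmt2 and Chdh, named after their values were seen. Shmt2, the mitochondrial form of the same enzyme, measured 65.8, 67.0 and 57.7 FPKM in the controls, against 95.7, 122 and 119.8 FPKM in the knockouts (log2 fold change 0.82 ± 0.14, adjusted p = 0.00339). Chdh, which makes the betaine that Bhmt uses, measured 23.8, 30.5 and 30.0 FPKM in the controls, against 36.4, 43.0 and 40.3 FPKM in the knockouts (log2 fold change 0.50 ± 0.15, adjusted p = 0.0344). The rise did not hold when control library 1 or 2 or knockout library 2 or 3 was left out (0.39 to 0.57), nor with libraries rescaled to the same total (0.38, adjusted p = 0.105).

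**Figure D4:**
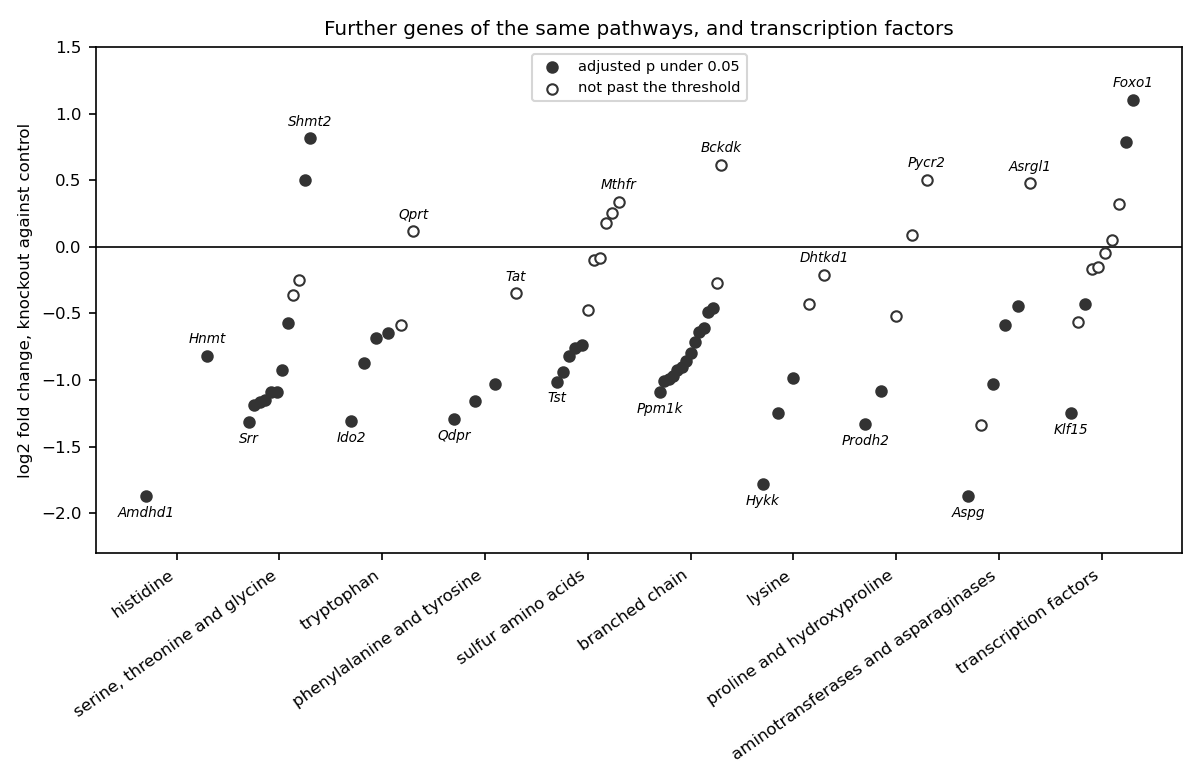
Log2 fold change of knockout against control (vertical axis) for 66 further genes of the pathways and 10 transcription factors, filled where the adjusted p is under 0.05, with the lowest and highest of each group named. Most points lie below 0, with Amdhd1 and Aspg near -1.87, while Shmt2 at 0.82 and Foxo1 at 1.10 lie above.

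Of 10 transcription factors known to act on genes of this kind, 2 fell, 2 rose and 6 did not pass the test. Over all genes tested 13% were called lower and 14.1% higher, so these counts do not set the factors apart. Klf15, a factor known to promote amino acid catabolism genes, measured 94.8, 76.3 and 74.6 FPKM in the controls, against 45.0, 26.7 and 32.5 FPKM in the knockouts (log2 fold change -1.25 ± 0.20, adjusted p = 0.00204). Foxo1, which insulin restrains, measured 11.9, 11.1 and 10.7 FPKM in the controls, against 23.2, 33.0 and 19.5 FPKM in the knockouts (log2 fold change 1.10 ± 0.20, adjusted p = 0.00354). The glucocorticoid receptor gene Nr3c1 rose by 0.79 ± 0.19 (adjusted p = 0.0155, and 0.0655 without control library 2). Hnf4a fell by 0.43 ± 0.13 on the log2 scale (adjusted p = 0.0413), a call lost without any 1 of the 6 libraries, at -0.35 to -0.48. Both were named after their values were seen. Transcript levels of a factor do not measure its activity.

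Some members share transcribed bases with other genes. In GENCODE M21 on GRCm38, exons of 9 of the 39 overlap another annotated gene, 5 of them a protein-coding gene on the opposite strand, and the labels give no strand for the counting, so such reads cannot be told apart. Of these partners, Tk1, opposite Afmid, measured 1.94 to 10.1 FPKM, Zfp740, opposite Csad, 5.296 to 8.54 FPKM, and Pomt2, opposite Gstz1, 4.12 to 6.11 FPKM. B3gnt8, opposite Bckdha, measured 0 to 1.91 FPKM and Plbd2, opposite Sds, 15.2 to 23.6 FPKM. Afmid also shares exon bases with the same-strand protein-coding gene Gm20708, for which no value was matched.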

How the data were processed

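Paired-end TruSeq v2 libraries of whole liver RNA were used, 3 per group, per the labels' protocols. The deposited values are FPKM per gene, 1 column per library, made by the authors on build mm9; the submitters' processing notes name Trimmomatic (0.33), TopHat2 (version 2.1.0), then Cuffdiff and Cuffnorm (both 2.2.1). The annotation and any scaling between libraries are not given in the sources used here. FPKM divides by library size, so a few very abundant genes can shift all others: the top 10 genes other than Alb held 19.3% to 20.1% of a control library's summed FPKM and 25.7% to 32.7% of a knockout library's. Alb, listed at 0 in every control, was left out as a failed estimate.

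Samples were grouped by their titles; the descriptions of knockout libraries 1 and 3, but not 2, carry an unexplained ending (no2). The groups were compared on log2(FPKM + 0.5) with limma (version 3.58.1, R 4.3.3; linear fit, moderated variance with a trend, two-sided). The 11842 genes whose mean reached 0.5 FPKM were tested, with Benjamini-Hochberg adjustment over all of them. Fold changes on this scale understate changes of low genes. Enzyme ratios were tested by exact permutation. Table names were used as symbols, and 7 of the 79 symbols listed for further pathway genes, synonyms among them, had no row. Without counts the absolute depth is unknown. Steps between low values (84.6% to 87.2% within 0.01 log2 units of a step) gave depths of 0.925 to 1.08 relative to control library 1, provided that no scaling between libraries was applied. In data simulated from this comparison, 51 of 100 genes altered by 1 log2 unit and 95 of 100 altered by 2 were called, and 6 of 11642 unaltered genes. The altered genes were a far smaller share than the 27% called in the data, which makes the adjusted threshold stricter. They were also drawn only from genes above a minimum level. These rates therefore do not carry over directly to the real comparison.

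The 39 members, the other gene lists and the tests were chosen with earlier results of these data known. Library values are given for members called with a log2 fold change of at least 1 in size and for the most changed and most abundant member of each pathway, and for others where a sentence turns on them; of other genes, up to 4 called per list with a change of at least 1, of which 1 is not reported here. Alternatives were other pseudocounts, filters, scalings and variance models, weights per library, Alb kept, leaving out each library in turn, and blocking by replicate number. Figures were drawn with matplotlib 3.10.9.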

Additional observations from a re-analysis of the deposited data

How the results depend on the processing

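The number of enzymes called lower was 25 to 30 under all alternatives, against 27, and 25 of the 27 kept their call in each of the 12 alternatives with all libraries and each of the 6 that left out 1. Ftcd and Cth were those that lost it; with all libraries Ftcd was lost at the same hepatocyte marker level (log2 fold change -0.35, adjusted p = 0.0658) and without a variance trend (adjusted p = 0.0794). Of the enzymes not called, Amt passed at the same total (adjusted p = 0.025), Gnmt at the same total (0.0327) and with library weights (0.0274), and Got1 with library weights (0.0342). Chdh and Hnf4a lost their calls without a variance trend (0.0748 and 0.0957), and Hnf4a at the same hepatocyte level (0.124). The enzymes called higher numbered 0 to 1 when 1 library was left out, and 1 at the same hepatocyte marker level, in both cases Bhmt. Over all genes, those called lower numbered 943 to 1497 and those higher 1186 to 1644 when 1 library was left out, with 996 lower without control library 1 and 943 without control library 2; with a minimum mean of 5 FPKM, 917 were higher, since fewer genes were tested. The further pathway genes and transcription factors called higher, 4 as reported, numbered 2 to 4 with 1 library left out, the lowest without control library 2.

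Rescaling moved the median of all genes from -0.0007 to -0.10 (same total) or 0.11 (same hepatocyte marker level). The share of calls that were higher went from 52.1% to 39.5% or 63.0%. The enzymes called lower were 29 and 26, beside 17.5% and 9.81% of all genes tested. Values that changed sign lay near 0, and the cause was not tested. Fah went to 0.0020 (same median) and 0.12 (same hepatocyte level), and with libraries left out ranged from -0.14 to 0.076, above 0 without control library 1, control library 2 or knockout library 1. Cdo1 went to -0.022 (same total) and with libraries left out ranged from -0.069 to 0.18, the lowest without both control library 3 and knockout library 2, an alternative chosen after seeing the data. Gpt2 went to 0.037 at the same hepatocyte level and with libraries left out ranged from -0.30 to 0.041, the highest without knockout library 3. With 1 library left out, the log2 ratio difference of Cbs to Cth was -0.28 to 0.0019 and that of Kmo to Kynu -0.054 to 0.14, below 0 without control library 1, knockout library 2 or knockout library 3. Same-numbered control and knockout libraries did not deviate together (correlations -0.01 to 0.0015), so the numbers were not taken as pairs; the replicate block gave 29 enzymes lower (Gnmt and Got1 added) and 0 higher, lost Hnf4a (adjusted p = 0.0726), and gave 1385 genes lower and 1575 higher over all genes. Of the further pathway genes and transcription factors together it called 44 lower and 4 higher, against 46 and 4. Without counts, the precision of low genes such as Acmsd and Sdsl cannot be stated beyond the spread of 3 libraries.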
